A study of Vitis vinifera with 12 samples.

Results

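CARPO, also called NAC60 (gene Vitvi08g01843), is a grapevine (Vitis vinifera) member of the NAC family of transcription factors. NAC proteins are specific to plants. They bind DNA as dimers through a conserved domain at the N-terminus and regulate transcription through a variable C-terminal region, and members of the family act in senescence, cell wall formation and the ripening of fleshy fruits. The sites described here are binding events of CARPO on leaf DNA that had no counterpart in the lists of its relatives NAC33 (Vitvi19g01484) and NAC03 (Vitvi10g00437) and that were found again in a further CARPO list.

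The study's title concerns the onset of ripening and organ maturation in grapevine. The assay was DAP-seq (DNA affinity purification followed by sequencing), in which a tagged factor made in a cell-free system retrieves fragments from naked genomic DNA. The DNA carries no chromatin, so a site shows what the protein can hold outside the cell, and not what it occupies in a leaf or a berry. All factors carried a HALO tag, were translated in rabbit reticulocyte lysate and were mixed with DNA of the cultivar Syrah. The groups used were CARPO labelled 500 on young leaf DNA (2 libraries called together), CARPO labelled 1000 on young leaf DNA, CARPO labelled 500 on berry DNA, NAC33 labelled 500 on young leaf DNA (2 libraries called together), NAC33 labelled 1000 on young leaf DNA, NAC33 labelled 500 on berry DNA and NAC03 labelled 500 on young leaf DNA. The titles give 500 and 1000 without a unit. The 3 HALO-GST control libraries were not analysed here. For the berry samples the source label says berry, while the growth and treatment texts name leaf.

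The sites were chosen from the CARPO list labelled 500 on leaf DNA, which held 14786 events, 14344 of them outside the sequence chr00. A partner is an event of another list whose position lies within 100 bp. A site was kept if it had no partner in the NAC33 or NAC03 list labelled 500 on leaf DNA and had a partner in the CARPO list labelled 1000. This left 4335 sites, 30.2% of the events outside chr00 and 4335 of the 44889 events in all 7 lists. Partners in these 4 lists therefore define the sites and are given as description. The other 3 lists (CARPO on berry DNA, NAC33 labelled 1000 and NAC33 on berry DNA) played no part in the choice. Each condition had 1 list, so no difference between lists has a test, and the intervals below are exact Clopper-Pearson 95% intervals that cover counting error only. Neighbouring events can share fragments, so these intervals may be too narrow. Sequencing depth is not recorded in the lists.

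Of the 14344 CARPO events, 46.9% had a partner labelled 1000. A NAC03 partner was present at 21.3% and a NAC33 partner labelled 500 on leaf DNA at 8.71%. These 3 lists were shorter, with 8887, 4080 and 5675 events outside chr00 in the same order. Their length limits these shares, and so the numbers called CARPO-only or absent at 1000. The events other than the sites fell into 3 groups. There were 6490 CARPO-only events without a partner at 1000, 2394 events with a partner at 1000 and a NAC33 or NAC03 partner, and 1125 with a NAC33 or NAC03 partner and none at 1000.

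The sites were of middling to high strength in the list they came from. Event strength, the authors' value for the size of an event, had a median of 35 (quartiles 26.8 and 47, highest 3339.9) at the 4335 sites. It was 23.4 in the CARPO-only events absent at 1000 and 59.2 in the recurring events with a NAC33 or NAC03 partner, against 29 over all events outside chr00. As a percentile of the list (the share of its events that are weaker), the median site stood at 63.7, the CARPO-only events absent at 1000 at 30.4 and the recurring events with a NAC33 or NAC03 partner at 86.5. The median −log10 q-value was 5.25 at the sites and 4.09 over all events. A −log10 q-value of at least 4 was reached by 2979 sites (68.7%), against 52.2% of all events.

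When the 14344 events were divided into 5 rank classes of strength, the sites made up 36.5% of the strongest class, 47.2% of the second, 32.5% of class 3, 21.9% of class 4 and 13.0% of the weakest. Their share was thus highest in the second class and not in the strongest, where events with a NAC33 or NAC03 partner that also recurred at 1000 took 54.6%. The CARPO-only events absent at 1000 ran the other way, with 77.6% of the weakest class and 5.12% of the strongest.

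In the list labelled 1000, the partners of the sites had a median strength of 28 (quartiles 20 and 44.6, highest 1801) and a median percentile of 54.3. Over the 4335 sites the ranks of strength in the lists labelled 500 and 1000 had a Spearman rho of 0.58. These lists share the factor and the DNA source, and the rho is a description across sites of 2 lists. The percentile in the list labelled 500 lay within 10 points of that in the list labelled 1000 at 1537 sites (35.5%) and was more than 50 points away at 224. The lists differ in length, so a difference in percentile shows no change in binding.

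**Figure D1:**
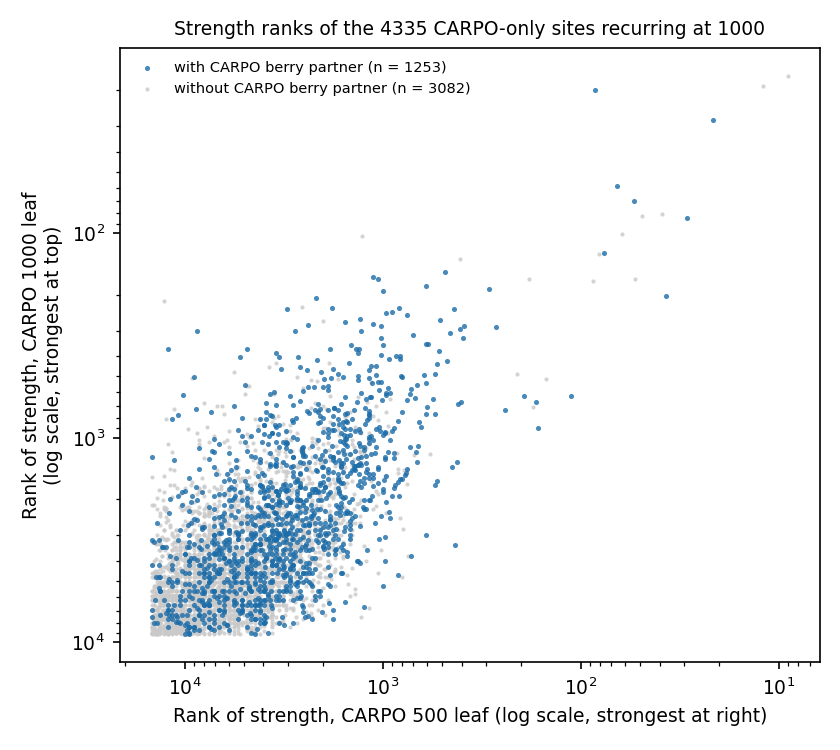
Rank of event strength in the CARPO list labelled 500 (horizontal) and in that labelled 1000 (vertical), both on log axes with the strongest events at the upper right, for the 4335 sites. Blue points are the 1253 sites with a CARPO partner on berry DNA and grey points the 3082 without; the few sites of highest rank include both kinds.

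The CARPO list on berry DNA, which was not used to choose the sites, held a partner for more than 1 in 4 of them. Of the 4335 sites, 1253 had a CARPO partner on berry DNA (28.9%, 95% interval 27.6% to 30.3%), against 22.5% of all CARPO events labelled 500 on leaf DNA outside chr00. The share was 4.87% (95% interval 4.36% to 5.42%) in the CARPO-only events absent at 1000 and 63.8% (95% interval 61.9% to 65.8%) in the recurring events with a NAC33 or NAC03 partner. The sites thus stood 24.0 percentage points above the first group and 34.9 below the second (difference -34.9), and none of the 3 intervals overlapped. With events below a −log10 q-value of 4 left out of every list, the share was 16.0% of 3041 sites and the difference from the events absent at 1000 was 14.4 points. From the side of the berry list, 1217 of its 3619 events outside chr00 (33.6%) lay at one of the sites.

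The groups differ in strength, so the share was also read within rank classes. The strongest class ran from a strength of 47.1 to 11804.7, so the groups may still differ in strength within it. Sites of the strongest class had a berry partner in 55.3% (95% interval 52.3% to 58.4%), against 23.8% (17.2% to 31.5%) of CARPO-only events absent at 1000 and 80.7% (78.6% to 82.6%) of recurring events with a NAC33 or NAC03 partner. In the second class the shares were 29.6% at the sites, 12.4% in the events absent at 1000 and 36.5% in the recurring events with a NAC33 or NAC03 partner. In the weakest class they were 9.65%, 1.44% and 19.5% in the same order, and the interval of the sites (6.85% to 13.1%) overlapped that of the recurring events with another factor (8.82% to 34.9%). The order of the 3 groups was the same in all 5 classes. The intervals of the sites and of the CARPO-only events absent at 1000 did not overlap in any class, while those of the sites and of the recurring events with another factor overlapped in class 5 alone. The share over all CARPO events outside chr00 is given for the whole list (22.5%) and not by class. These differences have no test, because there was 1 berry list.

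**Figure D2:**
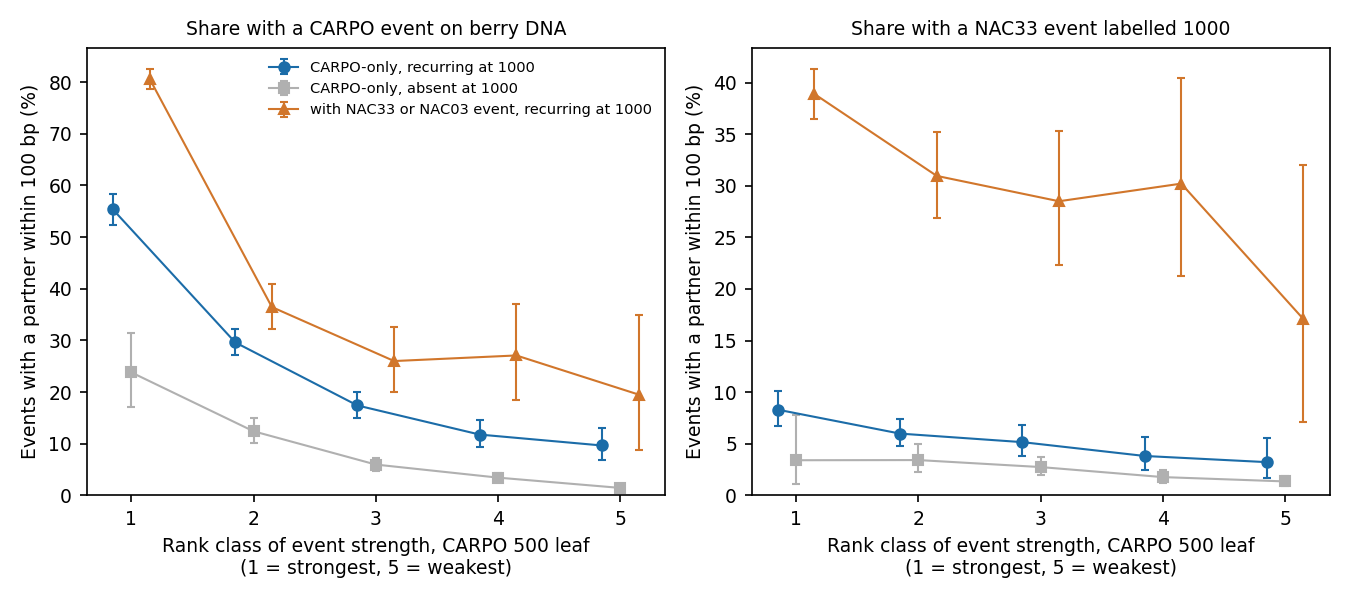
Share of CARPO events labelled 500 on leaf DNA (%) that had a CARPO partner on berry DNA (left) or a NAC33 partner labelled 1000 (right), by rank class of strength from 1 (strongest) to 5 (weakest). Blue circles are the sites, grey squares the CARPO-only events absent at 1000 and orange triangles the recurring events with a NAC33 or NAC03 partner; bars are exact 95% intervals. Among the sites the berry share runs from 55.3% in class 1 to 9.65% in class 5.

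Sites with a berry partner were stronger than those without in both leaf lists. In the list labelled 500 the median strength was 45.8 in the 1253 sites with a berry partner and 32 in the 3082 without, at median percentiles of 78.1 and 57.2. At 1000, which like 500 was used to choose the sites but not to split them, the median percentiles were 71.7 and 47.5. Within the berry list the partners were of ordinary strength, with a median of 18 and a median percentile of 48.9. Over the 1253 sites, ranks in the berry list had a rho of 0.55 with those labelled 500 and 0.47 with those labelled 1000.

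Several of the very strongest sites had no event on berry DNA. The event interval always runs 100 bp to each side of the position, and positions are given as deposited because the genome build is not stated. The site with the best mean rank in the 2 CARPO leaf lists lay on chromosome 14 at 30192059. Its strength was 3339.9 (rank 9) in the list labelled 500 and 1801 (rank 17) in that labelled 1000, and the nearest CARPO event on berry DNA was 120596 bp away. The next lay on chromosome 12 at 7215212, with strengths of 2854 (rank 12) at 500 and 1534 (rank 19) at 1000. Around this one the nearest events of NAC03 and of CARPO on berry DNA were 1359 and 1358 bp away. Both places thus ranked among the 20 strongest of each CARPO leaf list. Neither had a partner in the 3 lists that played no part in the choice. In the NAC33 and NAC03 lists labelled 500 on leaf DNA the choice of sites allowed none.

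The next 2 by mean rank were neighbours on chromosome 4, at 11528887 and 11528827, 60 bp apart. At 500 their strengths were 2034 (rank 21.5) and 464 (rank 85), and at 1000 their partners had 1052 (rank 28) and 1470 (rank 20), so the order of the pair differed between the lists. A single berry event, with a strength of 1663 and rank 12, served as the partner of both. The next, on chromosome 16 at 2707210, had a strength of 1670.9 (rank 29) at 500, 510.9 (rank 84) at 1000 and 734.4 (rank 32) on berry DNA. Of the 10 sites with the best mean rank, 5 had a berry partner and 5 had none.

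The other 3 leading sites without a berry partner lay on chromosome 2 at 16083143 (strength 1001 at 500 and 515.7 at 1000), on chromosome 18 at 22994723 (826.6 at 500 and 513.7 at 1000) and on chromosome 12 at 19943538 (668 at 500 and 444.8 at 1000). A site on chromosome 10 at 22041568, number 5 in strength at 500 among those without a berry partner, had strengths of 760.9 at 500 and 325.7 at 1000. Its partner at 1000 lay 34 bp away at 22041602 and was shared with a site at 22041617, of strength 222.1 at 500. That second site lay nearer to the partner, so the 325.7 is not the first site's alone. The leading sites with one also included chromosome 2 at 16108663, with strengths of 732.4 at 500, 569.5 at 1000 and 476.3 on berry DNA. Chromosome 13 at 13728231 completed them, with 600 at 500, 645 at 1000 and 347 on berry DNA.

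Among the 20 strongest sites at 500, 10 had a berry partner, against 19 of the 20 strongest recurring events with a NAC33 or NAC03 partner. Among the strongest 100 these numbers were 75 and 96, and among the strongest 500 they were 328 and 487. At the sites the share was 50%, 72%, 75%, 77% and 65.6% among the strongest 20, 50, 100, 200 and 500. The first value rests on 20 sites, and these numbers of sites were chosen after the values were seen. The groups were not matched in strength in this comparison. Recurring events with a NAC33 or NAC03 partner had the higher median strength (59.2, against 35 at the sites). A berry partner was present at 22.5% of all CARPO events outside chr00, of any strength.

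NAC33 labelled 1000 showed how far the sites stayed free of NAC33 in a list that was not used to choose them. Of the 4335 sites, 252 had a NAC33 partner labelled 1000 (5.81%, 95% interval 5.14% to 6.55%), against 10.6% of all CARPO events outside chr00. That background includes the events with a NAC33 partner at 500, which the choice of sites removed. The CARPO-only events absent at 1000, chosen with the same restriction, had 2.08% (95% interval 1.75% to 2.46%). Recurring events with a NAC33 or NAC03 partner had 35.7% (95% interval 33.8% to 37.6%), and this group keeps the events with a NAC33 partner at 500. In the strongest rank class the share was 8.30% at the sites and in the weakest 3.22%.

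The NAC33 partners of the sites were not strong in their own list. Their median strength was 20 (highest 200.7) and their median percentile in the NAC33 list labelled 1000 was 43.1. It was also 43.1 for the NAC33 partners of CARPO-only events absent at 1000, and 75.1 for those of recurring CARPO events with another factor. Events with a NAC33 partner at 500 were removed from both CARPO-only groups, so these percentiles also depend on that choice. The recurring events with another factor were chosen for a NAC33 or NAC03 partner. On the CARPO side the 252 sites stood at a median percentile of 73.4. A berry CARPO partner was present at 105 of the 252 (41.7%, 95% interval 35.5% to 48.0%). Read the other way, a NAC33 partner at 1000 was present at 8.38% of sites with a berry CARPO partner (95% interval 6.90% to 10.1%) and at 4.77% of those without (4.04% to 5.58%). A NAC33 event labelled 500 on leaf DNA lay within 250 bp at 14 of the 252 (5.56%), that is, between 101 and 250 bp away. The choice of sites allowed none within 100 bp, so a low number was largely set in advance. Of all sites, 3.32% had a NAC33 or NAC03 event labelled 500 on leaf DNA at 101 to 250 bp.

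The strongest NAC33 partner at 1000, on chromosome 13 at 13728231, had a strength of 200.7 and rank 49 and lay 5 bp from the site. The nearest NAC33 event labelled 500 was 158678 bp from this site. On chromosome 12 at 15387774 the NAC33 partner had a strength of 53 (rank 375) and lay 10 bp away, while CARPO had strengths of 70 at 500, 42.9 at 1000 and 21 on berry DNA. On chromosome 6 at 8584151 (NAC33 strength 50, distance 60 bp) and chromosome 7 at 21897919 (NAC33 strength 49, distance 91 bp) there was no berry CARPO partner.

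NAC33 on berry DNA had a partner at 10 of the 4335 sites (0.231%, 95% interval 0.111% to 0.424%), against 1.42% of all CARPO events outside chr00 and 0.200% (0.107% to 0.342%) of the CARPO-only events absent at 1000. The background of 1.42% includes the events with a NAC33 partner at 500, which the choice of sites removed. The NAC33 berry list is the shortest, with 731 events, and limits the number of sites with such a partner. With a −log10 q-value of at least 4 in every list it was 1 of 3041 sites (0.0329%). Of the 10 sites, 8 also had a NAC33 partner at 1000. A partner in all 3 lists that played no part in the choice was present at 3 sites. On chromosome 10 at 16275652, CARPO strengths were 187.5 at 500, 118 at 1000 and 244.7 on berry DNA, and NAC33 strengths were 93.7 at 1000 and 258.8 on berry DNA. The NAC33 event labelled 500 lay 106 bp from this site, just outside the limit. On chromosome 14 at 7640647, CARPO strengths were 48, 51 and 13 in the same order, and NAC33 strengths were 42 at 1000 and 19 on berry DNA. All 4 partners of this site lay 1 or 2 bp from it, and the nearest NAC33 event labelled 500 was 6024 bp away. On chromosome 6 at 5494967, CARPO strengths were 61, 34.1 and 16.6, and NAC33 strengths were 38 at 1000 and 19 on berry DNA.

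The strongest NAC33 berry partners belonged to the sites on chromosome 10 at 16275652 and, with a NAC33 berry strength of 21, on chromosome 14 at 122759. At 122759 CARPO had strengths of 46.3 at 500 and 49 at 1000 and no event on berry DNA within 100 bp.

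By their definition the sites have no NAC33 or NAC03 event labelled 500 on leaf DNA within 100 bp, a restriction that the CARPO-only events absent at 1000 share. The nearest NAC33 or NAC03 event labelled 500 on leaf DNA was a median of 14727 bp away (quartiles 4749.5 and 32827), and 3958 sites (91.3%) had none within 1000 bp. In the CARPO-only events absent at 1000 the median was 14561 bp and 92.4% had none within 1000 bp. The 144 sites with such an event at 101 to 250 bp had a NAC33 partner at 1000 in 11.1% (95% interval 6.49% to 17.4%), against 5.08% (4.27% to 5.997%) of the 2598 sites with none within 10000 bp. Their share with a berry CARPO partner was 36.1% (28.3% to 44.5%), against 28.8% (27.1% to 30.6%), and these 2 intervals overlapped.

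The edges of the choice were as follows. CARPO-only events with the nearest event labelled 1000 at 81 to 100 bp, just inside, numbered 110, with a median strength of 26.9 and 18 berry partners. Those at 101 to 120 bp, just outside, numbered 73, with a median strength of 32.7 and 9 berry partners. Recurring events with the nearest NAC33 or NAC03 event at 101 to 120 bp, just inside, numbered 46, with a median strength of 43.0 and 18 berry partners. Those at 81 to 100 bp, just outside, numbered 50, with a median strength of 37.3 and 27 berry partners. One site on chromosome 13, at 20576254, was singled out after its values were seen. It had NAC33 events at 101 bp at 500, 99 bp at 1000 and 100 bp on berry DNA, so it counted as CARPO-only by 1 bp.

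The most frequent distance between a site and its partner was a fixed step of 1 or 2 bp, though most partners lay elsewhere. The partner labelled 1000 lay exactly 2 bp away at 1774 of the 4335 sites (40.9%), 895 to the right and 879 to the left, where right means a higher coordinate. The same step was found at 48.2% of all recurring CARPO events outside chr00 and at 61.4% of the recurring events with a NAC33 or NAC03 partner. The median distance was 4 bp at the sites, 2683 (61.9%) had their partner within 10 bp and 364 (8.40%) had it more than 50 bp away. The step to the berry partner was 1 bp at 434 of 1253 sites (34.6%), 196 to the right and 238 to the left. It held for 47.9% of berry partners of recurring events with a NAC33 or NAC03 partner and 29.1% for CARPO-only events absent at 1000. The step to the NAC33 partner labelled 1000 was 2 bp at 60 of 252 sites (23.8%), 24 to the right and 36 to the left. For those 2 groups this share was 26.1% and 19.3% in the same order. Berry partners lay within 10 bp at 59.2% of the sites that had one and NAC33 partners at 45.2%.

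**Figure D3:**
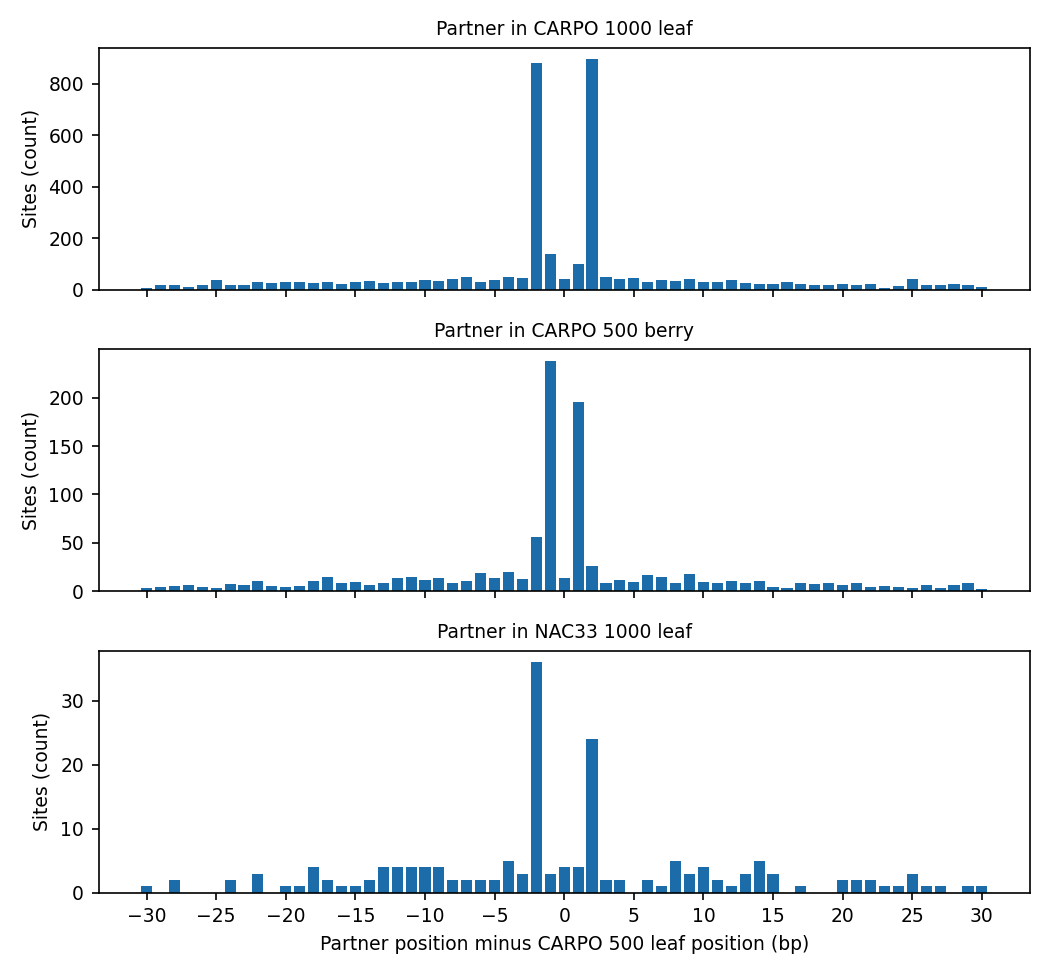
Position of the partner minus position of the site (bp, from -30 to 30) for partners in the CARPO list labelled 1000 (top), CARPO on berry DNA (middle) and NAC33 labelled 1000 (bottom), as numbers of sites. The counts pile up at 2 bp on both sides (895 and 879), at 1 bp on both sides (196 and 238) and at 2 bp on both sides (24 and 36), from top to bottom.

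The sides of these steps can be set side by side, but both offsets are measured from the same CARPO position labelled 500. The 2 offsets are therefore not independent, and agreement between the other lists was not tested. There were 353 sites with a partner 2 bp away at 1000 and a berry partner 1 bp away, and at 349 of them (98.9%, 95% interval 97.1% to 99.7%) both lay on the same side, 165 to the right and 184 to the left. Of the 55 sites with a CARPO and a NAC33 partner labelled 1000 both 2 bp away, 54 had both on the same side. For the recurring events with a NAC33 or NAC03 partner the numbers were 589 of 595 and 193 of 199.

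**Figure D4:**
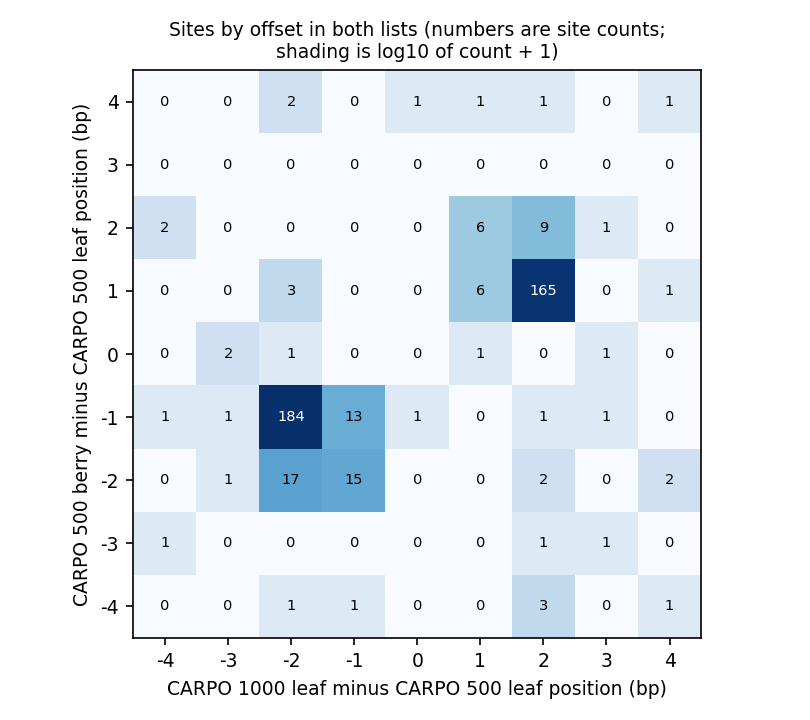
Numbers of sites by the offset of the CARPO partner labelled 1000 (horizontal, bp) and of the CARPO partner on berry DNA (vertical, bp), each minus the position labelled 500 on leaf DNA, for offsets from -4 to 4. The 2 dark cells hold 165 and 184 sites with both partners on the same side, while the opposite cells hold 1 and 3; both offsets share the position labelled 500.

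Most sites were not at the 2 bp step (40.9% were), and this held for the very strongest sites as well. Of the 20 strongest at 500, 2 had their partner at 1000 exactly 2 bp away, and the median distance was 6 bp. Of the strongest 100 it was 31, and of the strongest 500 it was 188 (37.6%). Across the 5 rank classes the share at the 2 bp step was 39.1% in the strongest and 48.3% in the weakest. The 10 leading sites by mean rank had distances of 5, 5, 15, 8, 8, 5, 7, 6, 11 and 5 bp to their partners at 1000. Among the 20 strongest recurring events with a NAC33 or NAC03 partner, 5 were at the 2 bp step, and among the strongest 500 there were 292 (58.4%).

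Single sites stood at very different places in the 2 CARPO leaf lists. The site on chromosome 9 at 20903040 had a strength of 43 (percentile 75.6) at 500 and a partner of strength 12 (percentile 2.38) at 1000. Chromosome 8 at 15585346 had 74.4 (percentile 91.3) at 500 and 16.5 (percentile 18.3) at 1000. Chromosome 6 at 4827104 had 63 at 500, 16 at 1000 and 13 on berry DNA. In the other direction, chromosome 4 at 18655297 had 15.6 (percentile 1.64) at 500 and 79 (percentile 86.4) at 1000, with the partner 2 bp away, and 13 on berry DNA. Chromosome 6 at 1232429 had 19 at 500 and 273 at 1000, and chromosome 10 at 11660230 had 15.6 at 500 and 64.5 at 1000. In these last 2 cases the partner lay 94 and 100 bp away, and another CARPO event labelled 500 lay nearer to it. For the site on chromosome 6 that was an event of strength 129, 46 bp from the partner and not among the sites. For the site on chromosome 10 it was the site at 11660069, of strength 37.4, 61 bp from the partner. The difference in place is therefore not these 2 sites' own. Over all 4335 sites, 63 (1.45%) had a partner at 1000 with another CARPO event labelled 500 nearer to it.

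The sites were spread over all 19 numbered chromosomes in proportion to CARPO events as a whole. They numbered 9.46 per Mb, with 13.1 on chromosome 8 and 6.35 on chromosome 15 as the extremes, taking the highest event end as the length. Their share of the CARPO events lay between 27.0% (chromosome 4, 95% interval 23.9% to 30.2%) and 32.6% (chromosome 16, 28.5% to 36.8%), and these intervals overlapped. The share with a berry CARPO partner lay between 24.2% (chromosome 7, 19.3% to 29.7%) and 33.9% (chromosome 5, 27.8% to 40.5%). Along the chromosomes, cut into 10 equal parts, the third part held 13.0% of the sites and the fifth 7.13%, against 12.8% and 6.90% of all CARPO events. The 100 kb window with the most sites held 8 of them on chromosome 12 between 1440007 and 1488227, with strengths from 19.6 to 68, and 2 of the 8 had a berry partner.

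Neighbouring sites were mostly far apart. The nearest other site was a median of 27987 bp away, and 1178 sites (27.2%) had one within 10 kb. The sites are 30.2% of the events outside chr00, which widens the gaps between them by construction. The nearest CARPO event of any kind was a median of 7091 bp away, against 6928 bp over all CARPO events outside chr00. Such an event lay within 10 kb at 58.6% of the sites and 59.3% of all CARPO events outside chr00. Within 500 bp there were 148 pairs of neighbouring sites, and 99 of these lay 60 to 179 bp apart. The closest pair, on chromosome 2 at 1916717 and 1916756, was 39 bp apart. Its strengths were 72.3 and 73.7 at 500, and both sites shared 1 CARPO partner at 1000 (strength 191) and 1 on berry DNA (strength 27). They also shared a NAC33 partner labelled 1000 (strength 21), 11 and 50 bp away. Of the 148 pairs, 49 shared 1 CARPO event labelled 1000 in this way and 99 had separate events. Sites up to 200 bp apart can enter through 1 event labelled 1000, so the choice of sites bears on this spacing. Another CARPO event of any kind lay within 200 bp at 7.17% of the sites and 5.83% of all CARPO events outside chr00. Of the 24 pairs with both partners at the 2 bp step, 13 had them on the same side and 11 on opposite sides.

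**Figure D5:**
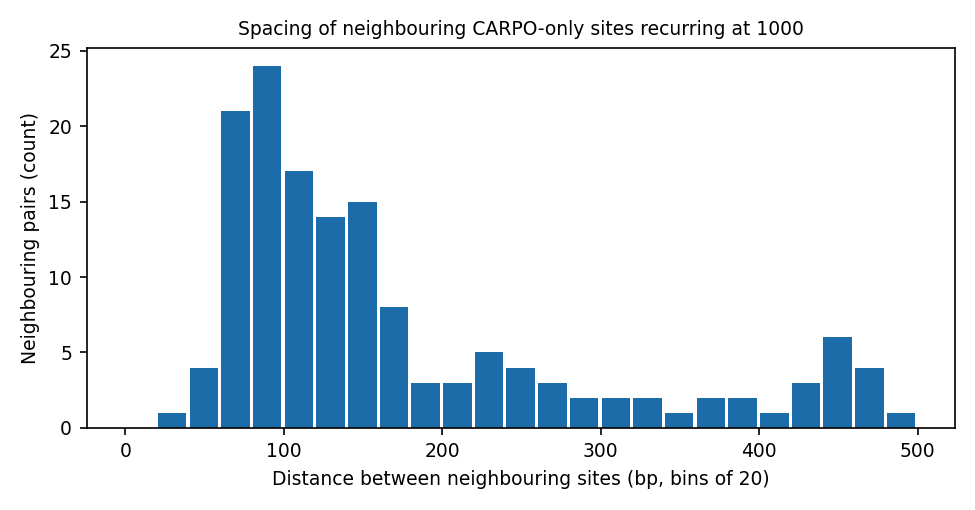
Number of pairs of neighbouring sites by the distance between them (bp, bins of 20, up to 500 bp). The 148 pairs pile up between 60 and 179 bp, where 99 of them lie, and the closest pair is 39 bp apart.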

How the data were processed

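The 7 event lists were used as deposited by the authors, in a 10-column layout without a header and with decimal commas. GEM is an event caller known here only from how the lists are named. The submitters' processing notes name fastp 0.21.0 and Bowtie2 2.0. Their settings, the genome build, the control and the filters are not given in the sources used here. Per the series' design text, 2 replicates went into the single list of NAC33, and 2 into that of CARPO, for leaf DNA at 500. Columns 7 to 9 were read from their values as event strength, −log10 p-value (capped at 999) and −log10 q-value, as the authors deposited them. The deposited score in column 5 follows the strength and was not used.

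The position was the start plus the offset plus 1, so each 201 bp interval is centred on it. For each site the nearest event of another list was taken, and ties in strength share an average rank. The partner search was tested on simulated data. Sites named in the text are the 10 best by mean rank over both CARPO leaf lists, the 5 best over the 3 CARPO lists with a berry partner, the 5 strongest without one, those with the best NAC33 partners at 1000 (5) and on berry DNA (3), those with a partner in all 3 other lists, the 3 each way with the largest percentile difference, the closest pair and the fullest window. The sites, groups and measures were chosen with earlier results of these data known. The 2 bp and 1 bp steps, the numbers of strongest sites, the distance bands and the search for nearer CARPO events were chosen after the values were seen. Sequence, motifs and genes at the sites were not analysed here, because the gene table at hand belongs to another assembly and matched 0 of the labels' 6 gene identifiers. Python 3.11.15, NumPy 2.4.6, pandas 2.3.3, SciPy 1.17.1 and matplotlib 3.10.9 were used. Alternatives were other partner distances, interval overlap, stricter events, a wider gap to other factors, chr00 kept, ranking by p-value, other neighbour distances and, added after the data were seen, 1 site per event labelled 1000.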

Additional observations from a re-analysis of the deposited data

Results flagged for a closer look

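The sequence chr00, left out of the sites by their definition, held 117 CARPO-only events that recurred at 1000, of 442 CARPO events labelled 500 on it (26.5%). It is given here because it lies outside the data used above and its number exceeds the 3 that a count of 0 would allow. Of the 117, 38 had a CARPO partner on berry DNA (32.5%, 95% interval 24.1% to 41.8%) and 9 a NAC33 partner labelled 1000. Their median percentile of strength was 65.5.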

How the results depend on the processing

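The 2 differences in berry share kept their sign under every alternative run. With a partner distance of 25 bp, the berry share was 26.4%, the share with a NAC33 partner at 1000 was 4.91%, the differences were 21.6 and -32.0 percentage points, and the median strength percentile was 67.2. With 50 bp the NAC33 share was 5.09%. With a −log10 q-value of at least 4 in every list, there were 3041 sites, the berry share was 16.0%, the share with a NAC33 partner on berry DNA was 0.0329% and the difference from CARPO-only events absent at 1000 was 14.4 points, with fewer berry events left by construction. When each list was cut at its median strength there were 2422 sites, and the difference from recurring events with another factor was -41.2 points. Asking for no other factor within 1000 bp gave -30.7 points for that difference. The share of sites with another within a given distance was 18.8% for 5 kb and 41.4% for 20 kb. Apart from the stricter q-value and the neighbour distances, which change the question by construction, the cause of these moves was not tested. The other alternatives, including 250 bp, interval overlap, chr00 kept and 1 site per event labelled 1000, left each value within its 95% interval, or for numbers of sites within 1.5 times. No paired analysis was possible because only 1 list stood for each condition, with any replicates merged before calling, which also meant that leaving out single replicates could not be done. Unknown depth limits every share, because weak binding below the calling threshold counts as no partner. The numbers of libraries differed between the lists labelled 500 and 1000.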
